A study of Mus musculus with 7 samples.

Results

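Inflammasome genes were followed over time in macrophages sorted from the regenerative bridge of the injured sciatic nerve, the tissue that grows between the cut nerve ends. The genes were Nlrp3, Aim2, Pycard, Casp1, Casp4, Txnip and Panx1, which are 7 of the 23361 genes in the table. They were chosen by name for their place in the pathway, with earlier results of these data known. All 7 passed the filter on low counts that left 12858 genes for testing.

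An inflammasome is a protein platform on which macrophages activate inflammatory caspases. A sensor such as NLRP3 or AIM2 detects damage, ion flux or DNA in the cytosol and recruits the adaptor ASC, the product of Pycard, which in turn gathers caspase-1. Caspase-1 matures interleukin-1 beta and interleukin-18 and cleaves gasdermin D, whose pores let these cytokines out and can kill the cell, and the mouse caspase encoded by Casp4, usually called caspase-11, cleaves gasdermin D after it meets bacterial lipopolysaccharide in the cytosol.

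The macrophages came from wild-type mice of the inbred strain BALB/cJ, and every group had the left sciatic nerve cut and repaired at once with sutures inside a nerve conduit. RNASeq libraries were made from polyA+ RNA of cells collected 5 days (n = 3), 14 days (n = 2) or 28 days (n = 2) after repair. All groups passed the same gate (Lin-F4/80+CD14+CD11b+CD16/32+), with granulocytes, eosinophils, lymphocytes, red cells and Thy1.2+ cells excluded. No uninjured nerve, sham operation or unsorted tissue was among the 7 libraries, the age and sex of the mice are not given in the sources used here, and neither is whether a library stands for 1 mouse or a pool, although the labels call the replicates independent.

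The libraries held 18027190 to 35247116 fragments assigned to genes. All 9 macrophage markers checked were present, with a summed level of 16105 to 22142 FPKM (fragments scaled to transcript length and to the size of the library). Among the genes of the gate, Emr1, which encodes F4/80, fell from day 5 to day 28 (log2 fold change of -1.01 ± 0.17, SE, edgeR adjusted p = 0.0065), and so did Cd14 (-0.76 ± 0.16, edgeR adjusted p = 0.0145), whereas Itgam for CD11b (edgeR adjusted p = 0.105) and Fcgr3 for CD16 (edgeR adjusted p = 0.481) were not called, with estimates of -0.45 and 0.12. The 10 neutrophil markers summed to 265, 282 and 295 FPKM at day 5, 530 and 541 at day 14, and 264 and 120 at day 28. S100a8 and S100a9 carried most of this, whereas the granule gene Elane was at 0 in all 7 libraries and Camp did not exceed 0.56 FPKM. Of the 6 neutrophil markers tested, 5 had a higher estimate at day 14 than at day 5, and 0 were called higher. The other, Mmp8, went against the sum and was called lower than at day 5 at day 14 (-1.6 ± 0.26, edgeR adjusted p = 0.0184) and day 28 (-2.58 ± 0.27, edgeR adjusted p = 0.00101). The 6 fibroblast markers summed to 222 FPKM in day 14 replicate 1 and to 27.8 to 80.2 FPKM in the other libraries, and the 5 endothelial markers to 14.6 to 26.4 FPKM at day 5, 7.42 to 13.4 at day 14 and 3.66 to 6.82 at day 28. Of the endothelial markers, Kdr (-3.02 ± 0.42, edgeR adjusted p = 0.0029) and Pecam1 (-1.8 ± 0.37, edgeR adjusted p = 0.0145) were called lower at day 28 than at day 5. Tek was called higher (4.63 ± 1.06, edgeR adjusted p = 0.0208), from at most 46 fragments in a library, and Cdh5 was not called (-0.09 ± 0.36, edgeR adjusted p = 0.888). The 6 T cell markers summed to 4.97 to 6.09 FPKM at day 5, 6.16 and 14.2 at day 14 and 11.5 to 14.4 at day 28, mostly from Cd2 (1.56 ± 0.42 at day 28 over day 5, edgeR adjusted p = 0.036), while Cd3e did not exceed 0.18 FPKM. The eosinophil and mast cell markers summed to 0.567 to 0.736, 0.8 to 2.42 and 1.87 to 2.38 FPKM, with Siglec5 called higher at day 28 (1.85 ± 0.36, edgeR adjusted p = 0.0105), and the Schwann cell markers to at most 0.685 FPKM in any library. The T cell sum and Siglec5 were higher at day 28, as Aim2, Panx1 and Txnip were, and their part in those results was not tested. The endothelial sum, Emr1 and Cd14 were lower at day 28, as Nlrp3 and Casp4 were, and their part was not tested either.

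The members split into 3 patterns over the time course. Nlrp3 and Casp4 were lower late than at day 5, Txnip, Panx1 and Aim2 were higher, and no change was called for Pycard or Casp1. In mean FPKM, Nlrp3 went from 244.4 at day 5 to 145.7 at day 28 and Casp4 from 68.74 to 26.23, while Txnip went from 49.28 to 117, Panx1 from 3.368 to 8.836 and Aim2 from 6.009 to 12.07. Since these are bulk libraries, fewer cells of a type and less RNA per cell cannot be told apart.

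**Figure D1:**
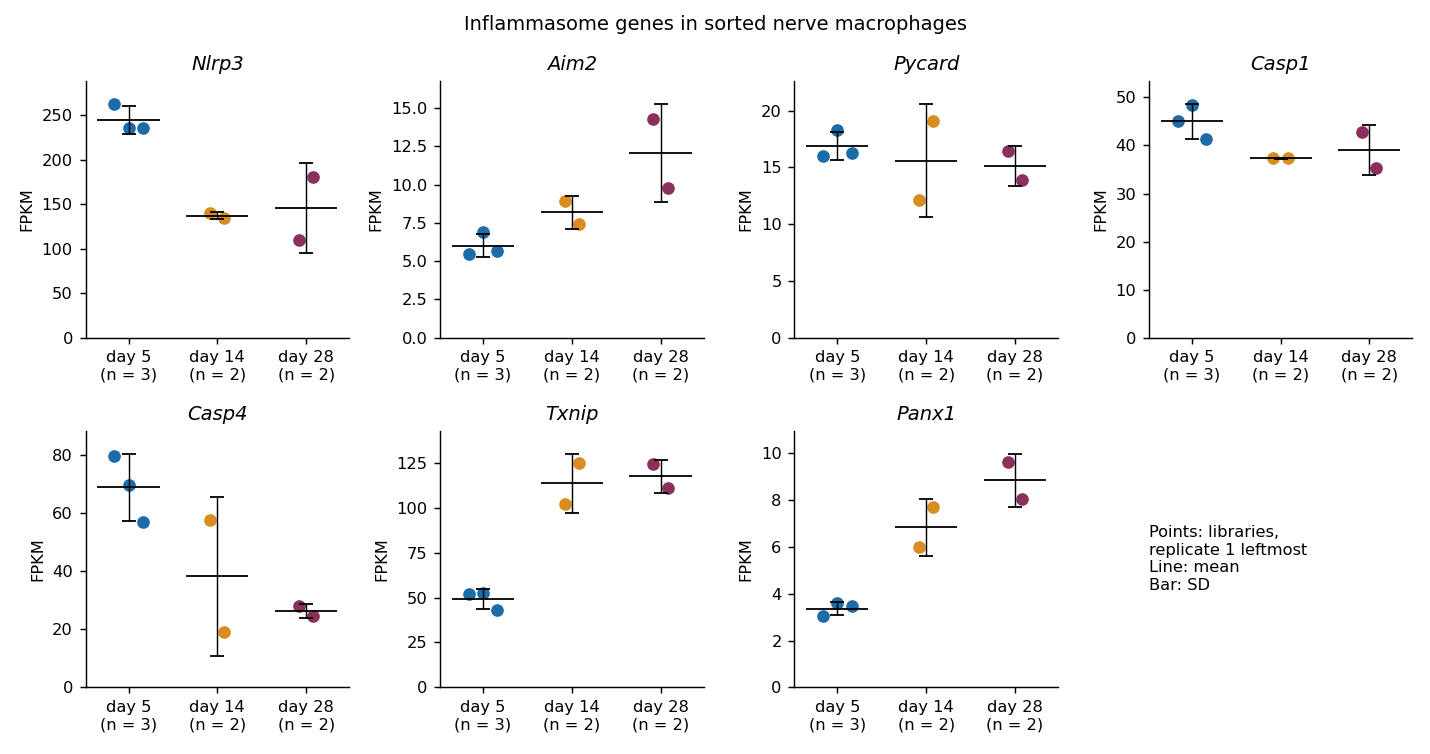
FPKM of the 7 genes (y axis, from 0, own scale for each gene) at days 5, 14 and 28 after nerve repair (x axis), with 1 point per library, the mean as a line and the SD as a bar. Nlrp3 was at 235 to 262 FPKM at day 5 and at 110 to 181 afterwards, whereas Txnip was at 42.9 to 52.7 and then at 102 to 125.

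The sequences just upstream of the transcription start are shown for the members called lower at day 28, Nlrp3 and Casp4, and for the pair with the largest rise, Txnip and Panx1, so that their base composition and motifs can be compared. Each line gives the 250 bases before a RefSeq start site in the reference genome (GRCm38.p6), 5′ to 3′ on the strand of the gene. Capitals mark a match to the kB consensus, the 10 base site named after NF-kB, in Nlrp3 and Casp4, and a pair of E-box-like motifs in Txnip.
Nlrp3, chr11:59541319-59541568, + strand: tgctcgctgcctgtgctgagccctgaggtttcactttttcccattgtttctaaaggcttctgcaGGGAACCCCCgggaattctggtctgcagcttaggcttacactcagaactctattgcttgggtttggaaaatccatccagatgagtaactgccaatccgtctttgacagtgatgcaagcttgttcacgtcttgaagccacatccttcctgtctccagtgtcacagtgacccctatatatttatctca
Casp4, chr9:5308599-5308848, + strand: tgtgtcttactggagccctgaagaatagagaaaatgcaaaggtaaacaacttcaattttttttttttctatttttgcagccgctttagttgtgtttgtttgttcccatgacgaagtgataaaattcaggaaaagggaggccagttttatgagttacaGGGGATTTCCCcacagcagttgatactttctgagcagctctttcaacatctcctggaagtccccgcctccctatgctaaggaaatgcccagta
Txnip, chr3:96557707-96557956, + strand: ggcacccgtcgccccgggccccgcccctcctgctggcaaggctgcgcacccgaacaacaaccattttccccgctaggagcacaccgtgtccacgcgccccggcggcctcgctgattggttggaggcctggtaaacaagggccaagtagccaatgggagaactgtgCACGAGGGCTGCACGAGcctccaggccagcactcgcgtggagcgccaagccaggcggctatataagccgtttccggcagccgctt
Panx1, chr9:15045479-15045728, - strand: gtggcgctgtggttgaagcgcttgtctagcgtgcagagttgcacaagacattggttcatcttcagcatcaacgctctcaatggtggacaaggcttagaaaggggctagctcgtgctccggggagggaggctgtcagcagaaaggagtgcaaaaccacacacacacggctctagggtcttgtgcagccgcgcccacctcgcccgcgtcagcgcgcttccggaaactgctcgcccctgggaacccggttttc

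RefSeq start sites were found for all 7 members, with 2 sites each for Nlrp3 and Casp4. The windows of Txnip and Panx1 held 22 and 17 CpG dinucleotides and 66.8% and 59.6% G+C, against a median of 6 CpG and 52.4% over 32817 start sites. The other members had 1 to 4 CpG and 40.8% to 49.6% G+C, and this low group holds Nlrp3 and Casp4, which fell, Aim2, which rose, and Pycard and Casp1, for which no change was called.

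Searched on both strands, the kB consensus matched 186 to 177 bases before the upstream Nlrp3 start site. The window before the other Nlrp3 start site, which is not printed above, held no match. In Casp4 it matched in 2 overlapping frames, 93 to 84 and 92 to 83 bases before the first start site. It is present before 3.9% of all start sites. A pair of CACGNG copies with 5 bases between them, the form of the carbohydrate response element through which glucose-sensing factors act, matched in Txnip 85 to 69 bases before the start and is present before 15 of the 32817 start sites (0.0457%). This motif was searched after the Txnip sequence had been read. The single E-box CACGTG (6.02% of all start sites) matched in Casp1 only, 137 to 132 bases before its start. The other motifs searched, TTCNNNGAA of STAT factors (7.01%), GAAANNGAA of IRF factors (7.12%) and TGANTCA of AP-1 (6.75%), matched in no member's window. These matches describe letters in the reference sequence, which is not that of BALB/cJ, and no binding was measured.

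Nlrp3 encodes the sensor that responds to potassium efflux, crystals and mitochondrial damage, and its transcription is induced by NF-kB in the step known as priming. The gene lies on chromosome 11 from 59541568 to 59566956 on the + strand (GENCODE M21, GRCm38) and overlaps no other annotated gene. Its level was 262, 236 and 235 FPKM at day 5, 140 and 134 at day 14, and 110 and 181 at day 28. All 4 later libraries were below all 3 of day 5, and the day 28 libraries lay on either side of the day 14 pair.

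Compared with day 5, Nlrp3 fell by 0.82 on the log2 scale at day 14 (SE 0.19, edgeR adjusted p = 0.0447) and by 0.73 at day 28 (SE 0.19, edgeR adjusted p = 0.0323). Between days 14 and 28 the estimate was 0.09 ± 0.20 (SE, edgeR adjusted p = 0.892). The day 14 call rested on few libraries: the adjusted p was 0.13 without day 5 replicate 1, 0.119 without day 5 replicate 2, 0.113 without day 5 replicate 3 and 0.125 without day 14 replicate 2, with the estimate between -0.77 and -0.85. limma on log2(FPKM + 1) also missed the threshold (adjusted p = 0.0609). For day 28 the adjusted p was 0.102, 0.0792 and 0.0756 without day 5 replicates 1, 2 and 3, and without day 28 replicate 1 the estimate moved to -0.42 (edgeR adjusted p = 0.143). That library also had the largest total and the lowest share of the ribosomal RNA gene Rn45s, at 0.86% against 1.85% to 3.12% in the others, and the part of these in the Nlrp3 value was not tested. Without day 28 replicate 2 the estimate was -1.14 (edgeR adjusted p = 0.0118).

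Aim2 encodes the sensor of double-stranded DNA in the cytosol. It spans chromosome 1 from 173350879 to 173466040 on the + strand and overlaps Cadm3 on the other strand without shared exons, and Cadm3 had at most 15 fragments in a library. Aim2 was at 5.48, 6.88 and 5.66 FPKM at day 5, 8.94 and 7.42 at day 14, and 14.3 and 9.78 at day 28. The libraries of the 3 days did not overlap, and the levels stepped up from each day to the next.

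Aim2 rose from day 5 to day 28 by 1.03 ± 0.19 on the log2 scale (SE, edgeR adjusted p = 0.00904). The single steps, 0.45 ± 0.19 from day 5 to day 14 (edgeR adjusted p = 0.194) and 0.57 ± 0.21 from day 14 to day 28 (edgeR adjusted p = 0.322), did not pass the test. The highest value, 14.3 FPKM, was that of day 28 replicate 1, without which the rise was 0.72 with an edgeR adjusted p of 0.0876.

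The 2 sensors thus stood in different proportions over time. Nlrp3 exceeded Aim2 by 47.8, 34.3 and 41.6 times in FPKM at day 5, by 15.7 and 18.1 times at day 14, and by 7.69 and 18.5 times at day 28. The ratios of the 3 day 5 libraries lay above those of the 4 later ones, as a description with no test.

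Pycard encodes ASC, the adaptor that links a sensor to caspase-1. It lies on chromosome 7 from 127989708 to 127993867 on the - strand, and its exons overlap those of Gm45205, a provisional gene model on the other strand that is not in the table. Its level was 16, 18.3 and 16.3 FPKM at day 5, 12.1 and 19.1 at day 14, and 16.4 and 13.9 at day 28. The lowest and the highest of the 7 values were the 2 libraries of day 14, and all days overlapped. The fitted differences were -0.10 ± 0.19 for day 14 over day 5, -0.03 ± 0.21 for day 28 over day 14 and -0.13 ± 0.19 for day 28 over day 5 (log2, SE, edgeR adjusted p = 0.794, 0.963 and 0.675), so that no change was detected with these libraries.

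Casp1 encodes caspase-1, the enzyme of the platform, and lies on chromosome 9 from 5298517 to 5307265 on the + strand. It was measured at 45.1, 48.5 and 41.4 FPKM at day 5, 37.3 and 37.4 at day 14, and 42.7 and 35.3 at day 28. The day 14 libraries were below those of day 5, and the day 28 libraries overlapped both. The estimates were -0.26 ± 0.12 for day 14 over day 5 (edgeR adjusted p = 0.24), 0.07 ± 0.13 for day 28 over day 14 (edgeR adjusted p = 0.877) and -0.19 ± 0.12 for day 28 over day 5 (edgeR adjusted p = 0.323), and none passed the test. Casp1 exceeded Pycard by 1.96 to 3.08 times in FPKM, and both of these bounds were set by day 14 libraries.

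Casp4 lies next to Casp1 on chromosome 9, from 5308828 to 5336783 on the + strand, and is known as a gene that interferons and lipopolysaccharide induce. It was at 79.7, 69.7 and 56.8 FPKM at day 5, 57.6 and 18.9 at day 14, and 27.9 and 24.6 at day 28. Day 14 replicate 1 lay within the range of day 5, whereas day 14 replicate 2 was the lowest of all 7. As a ratio, the members' other same-day libraries were closer together than these 2.

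Casp4 fell from day 5 to day 28 by 1.37 on the log2 scale (SE 0.37, edgeR adjusted p = 0.0378). The estimates of -0.85 ± 0.37 for day 14 against day 5 (edgeR adjusted p = 0.198) and of -0.53 ± 0.40 for day 28 against day 14 (edgeR adjusted p = 0.632) did not pass. The timing of this fall depended on the day 14 library: without day 14 replicate 1 the fall to day 14 was called (-1.85, edgeR adjusted p = 0.0003), and without day 14 replicate 2 the fall from day 14 to day 28 was called instead (-1.12, edgeR adjusted p = 0.00551). The fibroblast markers summed to 222 FPKM in day 14 replicate 1 and 80.2 in replicate 2, and their part in the Casp4 values was not tested. The call at day 28 itself was lost without any 1 of the day 5 libraries (edgeR adjusted p = 0.113, 0.0897 and 0.0623 for replicates 1, 2 and 3) and without day 28 replicate 1 (0.172) or 2 (0.167), with estimates of -1.25 to -1.49, and in limma on log2(FPKM + 1) (-1.35, adjusted p = 0.056).

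Txnip encodes thioredoxin-interacting protein, an arrestin-like protein that binds thioredoxin and restrains glucose uptake, and that has been described as a ligand of NLRP3 under oxidative stress. It lies on chromosome 3 from 96557957 to 96561883 on the + strand. It was at 52.2, 52.7 and 42.9 FPKM at day 5, 102 and 125 at day 14, and 124 and 111 at day 28. All 4 later libraries were above all 3 of day 5, and days 14 and 28 overlapped.

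Txnip rose over its day 5 level by 1.21 ± 0.14 at day 14 (log2, SE, edgeR adjusted p = 0.00855) and by 1.26 ± 0.14 at day 28 (edgeR adjusted p = 0.00141), and the estimate between days 14 and 28 was 0.05 ± 0.16 (edgeR adjusted p = 0.925). Both calls held whichever single library was left out. Txnip overlaps exons of the antisense gene Gm15441, and since the use of strand in counting is not given in the sources used here, their reads cannot be told apart. Gm15441 had 9 to 60 fragments per library, against 2443 to 12410 for Txnip.

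The change between steps was also tested directly, as day 14 against the mean of days 5 and 28. Txnip stood at 0.58 ± 0.13 in this contrast, unadjusted p = 0.00139 in the edgeR fit over all genes, and did not pass the adjustment (edgeR adjusted p = 0.168). It passed with DESeq2 (adjusted p = 0.00913), without the expression filter (edgeR adjusted p = 0.0181) and without day 14 replicate 1 (edgeR adjusted p = 0.0261).

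Panx1 encodes pannexin-1, a membrane channel that releases ATP and that caspases can open. It lies on chromosome 9 from 15002128 to 15045478 on the - strand and overlaps no other annotated gene. It was at 3.04, 3.6 and 3.46 FPKM at day 5, 5.98 and 7.7 at day 14, and 9.63 and 8.04 at day 28. These values rest on 139 to 698 fragments in each library. The libraries of the 3 days did not overlap and stepped upwards. Its relatives Panx2 and Panx3 did not exceed 0.0192 FPKM in any library.

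Panx1 rose over its day 5 level by 1.04 ± 0.19 at day 14 (log2, SE, edgeR adjusted p = 0.0212) and by 1.41 ± 0.18 at day 28 (edgeR adjusted p = 0.00225), and the step between days 14 and 28 was 0.37 ± 0.20 (edgeR adjusted p = 0.487). The day 28 call held with each library left out in turn. The day 14 call was lost without day 5 replicate 1, 2 or 3 (edgeR adjusted p = 0.0806, 0.0673 and 0.0777) or day 14 replicate 2 (0.0862), with estimates no lower than 0.84.

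The order of the members by level changed with these shifts. At day 5 the order in FPKM was Nlrp3, Casp4, Txnip, Casp1, Pycard, Aim2 and Panx1, and of these neighbours only Txnip (42.9 to 52.7) and Casp1 (41.4 to 48.5) overlapped. At day 14 Txnip was second at 102 to 125 FPKM, below Nlrp3 at 134 to 140, and Casp4 overlapped both Casp1 and Pycard, as Aim2 overlapped Panx1. At day 28 the ranges of Nlrp3 (110 to 181) and Txnip (111 to 124) overlapped, as did those of Pycard (13.9 to 16.4) and Aim2 (9.78 to 14.3). Within libraries, Nlrp3 was 5.02, 4.47 and 5.49 times Txnip at day 5, 1.38 and 1.07 times at day 14, and 0.893 and 1.64 times at day 28. In mean FPKM, Nlrp3 was above 97.4% to 98.4% of genes at each day, and Panx1 above 64.4% at day 5 and 74% at day 28. Unlike the shares of called genes, these are over all 23361 genes in the table, including those that the filter on low counts left untested.

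Between days 5 and 14, 3 of the 7 members were called at an edgeR adjusted p under 0.05, against 4.78% of all genes tested. Txnip and Panx1 were higher at day 14 (2.84% of all genes were called higher) and Nlrp3 was lower (1.94% were called lower). Txnip and Panx1 also passed a stringent rule that takes the fold and level limits of the study with edgeR in place of its own test, that is an adjusted p under 0.05 plus a 2-fold difference in mean FPKM and a mean of 5 or more at either day, which 1.17% of all genes passed. The libraries of the 2 days did not overlap for 5 members, against 43.2% of all genes. The median of the members was -0.10 on the log2 scale and that of all genes 0.027. Over all genes, 63, 106 and 52 were called without day 5 replicate 1, 2 and 3, in place of 614. Without day 5 replicate 1, 2 or 3 or day 14 replicate 2, only 1 member was called, Txnip.

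Between days 14 and 28, 0 of the 7 members were called, against 0.0622% of all genes with edgeR. At an unadjusted p under 0.05 there was 1 member, Aim2, and DESeq2 also called 0. The FPKM of the 2 days did not overlap for Aim2 and Panx1, against 39.0% of all genes. Without day 14 replicate 2, which leaves a lone library at day 14, the Casp4 estimate here was -1.12.

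Between days 5 and 28, 5 of the 7 members were called, against 15.2% of all genes. Txnip, Panx1 and Aim2 were higher (7.74% of all genes) and Nlrp3 and Casp4 lower (7.51% of all genes). All of these but Nlrp3 met the stringent rule, which 3.52% of all genes met, and the libraries did not overlap for the same 5 members, against 51.5% of all genes. The median of the members was -0.13 and that of all genes 0.033. Leaving out 1 library gave 2 to 5 called members: 3 without day 5 replicate 1, 2 or 3, and 2 without day 28 replicate 1. Over all genes, 820, 916 and 967 were called without day 5 replicate 1, 2 and 3, in place of 1960. The comparisons of days 14 and 28 with day 5 share the day 5 libraries.

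**Figure D2:**
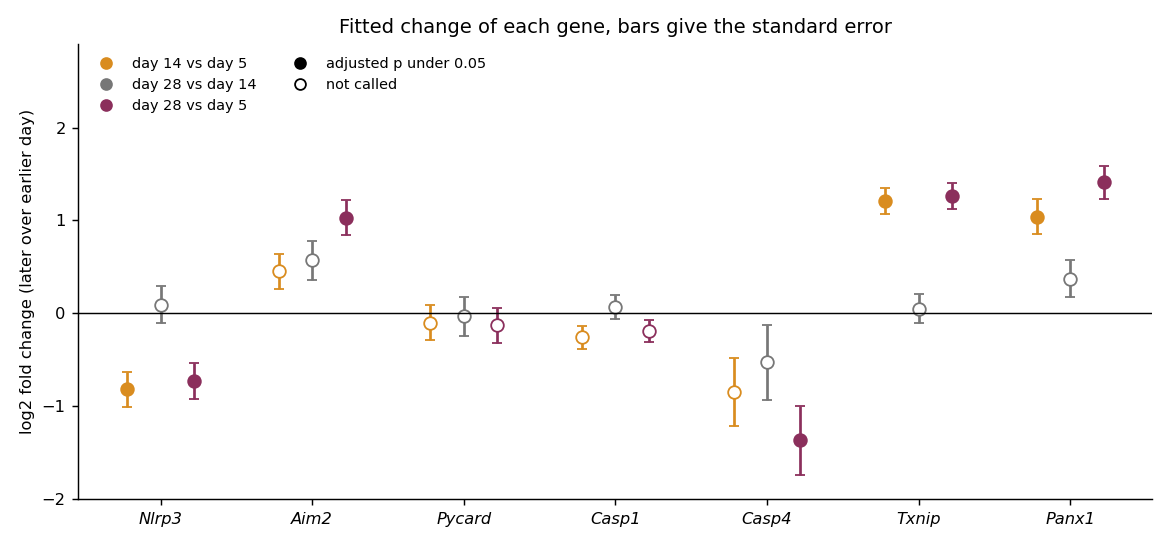
Fitted log2 fold change of each gene (y axis, later over earlier day) with its standard error, for 3 comparisons of time points in different colours; filled points had an edgeR adjusted p under 0.05. Txnip stood at 1.21 and 1.26 and Nlrp3 at -0.82 and -0.73 against day 5, and no point for day 28 against day 14 was filled.

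In the contrast of day 14 with the mean of days 5 and 28, 0 of the 7 members were called, against 0.0156% of all genes with edgeR. At an unadjusted p under 0.05 there were 2 members, Txnip and Nlrp3 (-0.46 ± 0.18, edgeR adjusted p = 0.344), and DESeq2 called 1, Txnip. Without day 14 replicate 1 the called members were 2, Txnip and Casp4 (-1.16, edgeR adjusted p = 0.0144).

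Of 82 other genes of the pathway on 9 lists, 78 were tested. The lists, like the members, were chosen with earlier results of these data known. At day 28 against day 5, 28 of these 78 were called, 25 lower and 3 higher, against 15.2% of all genes, and their median was -0.31 against 0.033 for all genes. The count of 28 was 16 without day 5 replicate 1, 15 without day 5 replicate 2, 9 without day 28 replicate 1 and 14 without day 28 replicate 2. At day 14 against day 5, 6 of 78 were called (5 lower and 1 higher), against 4.78% of all genes, and at day 28 against day 14, 1 was called, the ion channel gene Trpm2, against 0.0622% of all genes. In the contrast of day 14 with the mean of the other days 0 were called with edgeR, and 4 with DESeq2. Without 1 library the count at day 14 against day 5 was 0 (day 5 replicate 1 or 3), 1 (day 5 replicate 2), 22 (day 14 replicate 1), 3 (day 14 replicate 2) or 2 (either day 28 library). At day 28 against day 14 it was 2 without day 14 replicate 1, 17 without day 14 replicate 2 and 0 without any other, and in the last contrast it was 5 without day 14 replicate 1 and 6 without day 14 replicate 2. Calls over all genes moved as well. Without day 5 replicate 1, 2 or 3 they numbered 63, 106 and 52 at day 14 against day 5, in place of 614. At day 28 against day 5 they then numbered 820, 916 and 967, in place of 1960. The calls over all genes also moved when a library of day 14 or 28 was left out. At day 28 against day 5, 7.51% of all genes were called lower and 7.74% higher, and the list counts below are read beside these shares.

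**Figure D3:**
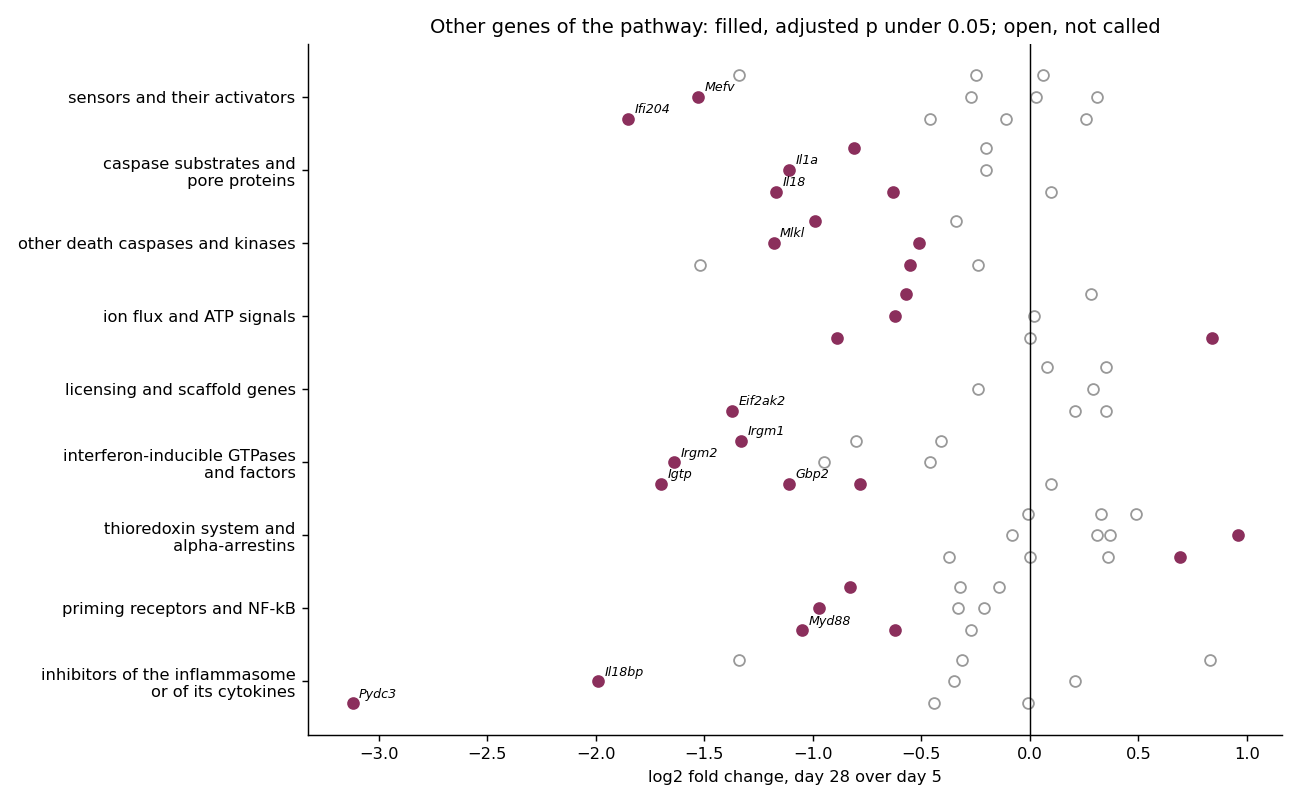
Fitted log2 fold change from day 5 to day 28 (x axis) of the 78 other pathway genes tested, 1 row of points per list; filled points had an edgeR adjusted p under 0.05, and called genes with a change of at least 2-fold are named. Filled points lay to the left of 0 except Kcnn4, Txn1 and Arrdc3, which were higher at day 28.

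On the list of caspase substrates and pore proteins, 4 of 7 genes were called lower at day 28 and none higher. Those called were Il1b, Il18, Il1a and Ninj1, whereas Gsdmd, Dfna5 and Hmgb1 were not called. Il1b, the gene of the main inflammasome cytokine, was at 1104, 1205 and 1225 FPKM at day 5, 735 and 618 at day 14, and 783 and 728 at day 28. By day 14 Il1b fell by 0.79 in log2 units (SE 0.13, edgeR adjusted p = 0.0184) and by 0.63 to day 28 (SE 0.13, edgeR adjusted p = 0.0129), with the later libraries all below those of day 5, as for Nlrp3. Il18 was at 19.4, 24.6 and 17.7 FPKM, then 17.9 and 10, then 10.2 and 7.81, and fell by 1.17 to day 28 (SE 0.27, edgeR adjusted p = 0.0223). Il1a, the gene of interleukin-1 alpha, was at 245, 258 and 181 FPKM, then 126 and 71.9, then 98.2 and 111, with calls at day 14 (edgeR adjusted p = 0.031) and day 28 (-1.11 ± 0.24, edgeR adjusted p = 0.0164). The day 14 call of Il1b was lost without any 1 of the day 5 libraries (edgeR adjusted p = 0.0563 to 0.0731), and its day 28 call without day 5 replicate 2 or 3 or either day 28 library (0.0529 to 0.0679). The call of Il18 was lost without day 5 replicate 1 or 2 or either day 28 library (0.0619 to 0.115). That of Il1a was lost at day 14 without any 1 library other than day 14 replicate 1 (0.0547 to 0.0958), and at day 28 without day 5 replicate 1 or 2 or either day 28 library (0.0554 to 0.131).

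Gsdmd, which encodes the pore protein gasdermin D, was at 61.8, 69 and 62 FPKM at day 5, 71 and 56.3 at day 14, and 57 and 53.6 at day 28. Its estimates of 0.00 ± 0.13 for day 14 and -0.20 ± 0.13 for day 28 against day 5 did not pass (edgeR adjusted p = 0.986 and 0.305).

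Of 11 further sensor genes tested, 2 were called lower at day 28 (7.51% of all genes) and none higher. Mefv, which encodes the sensor pyrin, fell by 1.23 to day 14 (SE 0.26, edgeR adjusted p = 0.0366) and by 1.53 to day 28 (SE 0.27, edgeR adjusted p = 0.00716). Ifi204, a DNA sensor gene of the same family as Aim2, went the other way from Aim2: it was at 109, 118 and 95 FPKM at day 5, 92.4 and 35.3 at day 14, and 33.2 and 25.8 at day 28, a fall of 1.85 (SE 0.34, edgeR adjusted p = 0.00904). The Ifi200 genes are close copies of each other, so the share of reads given to each is uncertain. The day 14 call of Mefv was lost without any 1 of the day 5 or day 28 libraries (edgeR adjusted p = 0.0649 to 0.109), and the day 28 calls of Mefv (0.0544 and 0.075) and Ifi204 (0.0691 and 0.0745) were lost without either day 28 library.

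The interferon-inducible GTPases and factors, several of which help expose bacterial lipopolysaccharide to caspase-11, had 5 of 10 genes called lower at day 28 and none higher. Irgm1 was at 41.6, 46.2 and 32.5 FPKM at day 5, 45.3 and 23.3 at day 14, and 18 and 13.5 at day 28 (log2 fold change of -1.33 ± 0.27, edgeR adjusted p = 0.0137). Its day 14 libraries lay apart as those of Casp4 did, with replicate 1 in the day 5 range. Igtp (-1.70 ± 0.27, edgeR adjusted p = 0.00511), Irgm2 (-1.64 ± 0.27, edgeR adjusted p = 0.00578) and Gbp2 (-1.11 ± 0.31, edgeR adjusted p = 0.0396) were also lower at day 28. So was Eif2ak2, the kinase PKR, the only one of 7 licensing and scaffold genes called (-1.37 ± 0.21, edgeR adjusted p = 0.00479). Igtp, Irgm2 and Eif2ak2 kept their calls with each library left out in turn, whereas Irgm1 lost its call without either day 28 library (edgeR adjusted p = 0.0695 and 0.0938), and Gbp2 without day 5 replicate 1 or 2 or either day 28 library (0.0918 to 0.183).

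Among 9 receptors and factors of priming, the signal that induces Nlrp3 and Il1b, 4 were called lower at day 28 and none higher. Myd88, the adaptor of most Toll-like receptors, fell by 0.56 to day 14 (SE 0.12, edgeR adjusted p = 0.0407) and by 1.05 to day 28 (SE 0.13, edgeR adjusted p = 0.00183). Of 7 other death caspases and kinases, 4 were lower at day 28 and none higher, among them Mlkl, the executioner of necroptosis (-1.18 ± 0.23, edgeR adjusted p = 0.0112). The day 14 call of Myd88 was lost without any 1 library other than day 14 replicate 1 (edgeR adjusted p = 0.0593 to 0.164), while its day 28 call held, and that of Mlkl was lost without day 28 replicate 2 (0.0671).

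Of the 7 genes of ion flux and ATP signals, 3 were called lower and 1 higher at day 28. Trpm2, a calcium channel opened by oxidative stress, was at 2.88, 2.77 and 3.18 FPKM at day 5, 3.86 and 3.4 at day 14, and 1.55 and 1.6 at day 28, which was 0.435 times the day 14 level (edgeR adjusted p = 0.0344) and 0.539 times the day 5 level (edgeR adjusted p = 0.0045). The call against day 14 was lost without any 1 of the day 5 or day 28 libraries (edgeR adjusted p = 0.0646 to 0.224), and that against day 5 held. P2rx7 and Nek7 were looked up after their values were seen, since they encode the ATP receptor and the kinase that act just upstream of NLRP3. P2rx7 was at 22.2 to 31.3 FPKM in all libraries (0.02 ± 0.15 at day 28, edgeR adjusted p = 0.94), and Nek7 at 26.4 to 33.1 (0.28 ± 0.10 at day 28, edgeR adjusted p = 0.0797).

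**Figure D4:**
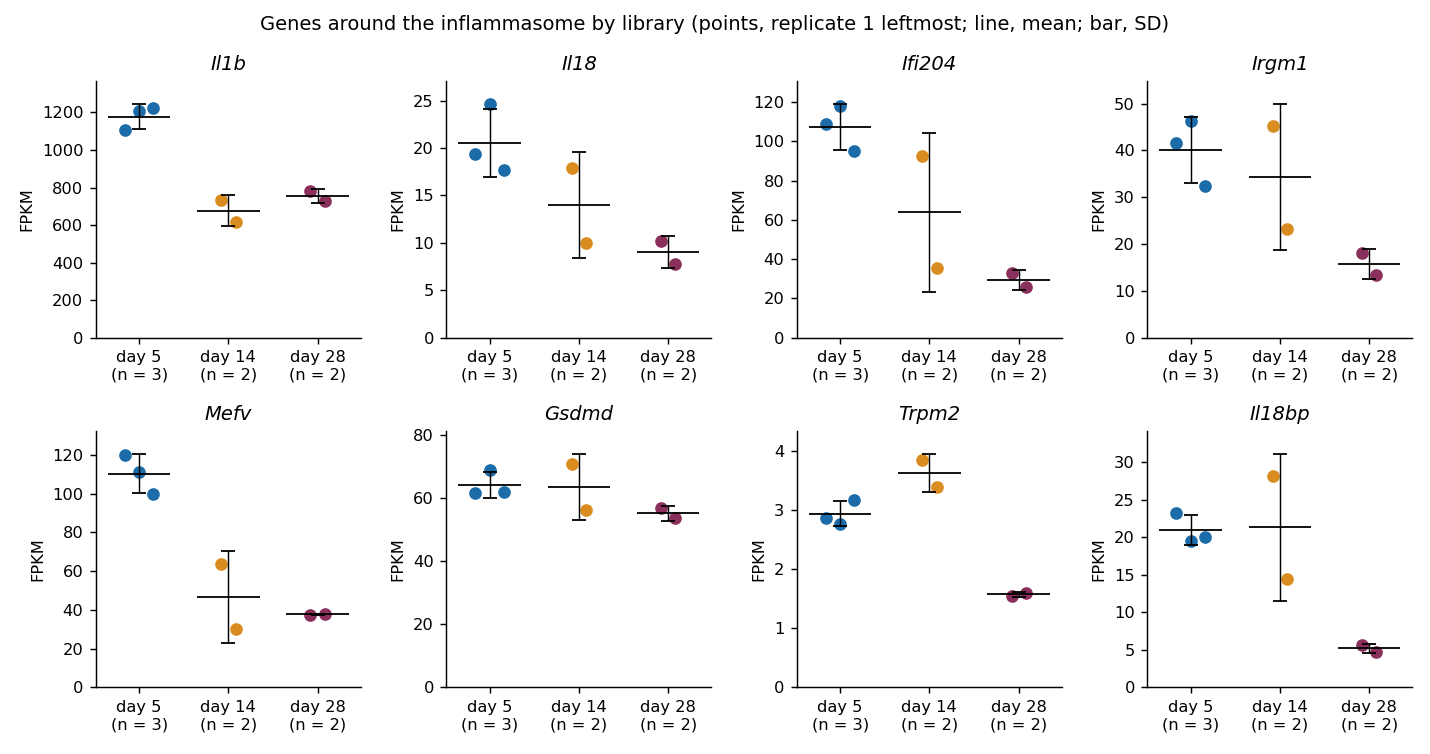
FPKM (y axis, from 0, own scale for each gene) of 8 genes around the inflammasome at days 5, 14 and 28 (x axis), with 1 point per library, the mean as a line and the SD as a bar. Il1b was at 1104 to 1225 FPKM at day 5 and at 618 to 783 afterwards, and for Ifi204, Irgm1, Mefv and Il18bp day 14 replicate 2 lay well below replicate 1.

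In the thioredoxin system and the alpha-arrestins, the family of Txnip, 2 of 11 genes were called higher at day 28 (7.74% of all genes) and none lower. Arrdc4, the closest relative of Txnip, was looked up after its values were seen. It was at 39, 35 and 35.1 FPKM at day 5, 32.7 and 31.7 at day 14, and 32.1 and 25 at day 28, a difference of -0.37 ± 0.16 at day 28 that did not pass the test (edgeR adjusted p = 0.147).

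Of 9 inhibitors, 2 were called lower at day 28 (7.51% of all genes) and none higher. Il18bp, which neutralizes interleukin-18, was at 23.2, 19.5 and 20 FPKM at day 5, 28.2 and 14.4 at day 14, and 5.62 and 4.76 at day 28, a fall of 1.99 (SE 0.27, edgeR adjusted p = 0.00276). Pydc3, a gene of the Ifi200 family, fell by 3.12 (SE 0.45, edgeR adjusted p = 0.00345) from a level of at most 3.05 FPKM, a call that was lost without day 28 replicate 1 (edgeR adjusted p = 0.0524).

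Genes with the most similar profiles were sought for each member among the 7556 tested genes whose FPKM averaged 5 or more over the libraries. Likeness was the root mean square difference of log2(FPKM + 1) over the 7 libraries, after each gene was centred on its own mean. For Nlrp3 these were Cd14 (0.132), Tmem132a (0.139) and Clcn5 (0.143), against a spread of 0.445 for Nlrp3 itself. Cd14, one of the sort markers, was at 2766 FPKM in the mean of day 5, 1634 at day 14 and 1616 at day 28.

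For Casp4, which had the widest spread (0.742), the closest were Rsad2 (0.149), Trim25 (0.15) and Ankrd28 (0.162). Those of Aim2 were Gas5 (0.0869), St8sia4 (0.0933) and Snhg1 (0.123), against a spread of 0.404. For Txnip (0.612) they were Acss2 (0.128), Fam58b (0.173) and Atp2a3 (0.176), and for Panx1 (0.525) Ak3 (0.0778), Sesn1 (0.0884) and again Acss2 (0.1), which went from a mean of 3.49 FPKM at day 5 to 7.9 at day 14 and 9.6 at day 28. Pycard (0.196) and Casp1 (0.149) had the smallest spreads of the members, and their closest genes were Prkaa1 (0.0827) and Ptprc (0.039). These likenesses rest on 7 libraries that all the genes share and are given with no test.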

How the data were processed

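RNASeq of 7 libraries was analysed from 1 table. According to the methods and the submitters' processing notes, the authors used cutadapt 1.8 for trimming of single-end reads and TopHat2 2.0.13 for mapping to mm10, restricted to annotated junctions, and they quantified genes with Cuffdiff 2.2.1. The deposited values were estimated counts (raw fragments per gene), a scaled signal (the same fragments after 1 scaling factor per library) and FPKM, which the authors derived per length and library size. How multi-mapped reads were shared is not given in the sources used here.

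After rounding, the estimated counts entered edgeR 4.0.16 (R 4.3.3): expression filter by group, TMM scaling, quasi-likelihood F test on all 7 libraries by time point alone, and Benjamini-Hochberg adjustment over 12858 genes in each comparison, called at an adjusted p under 0.05. Residual degrees of freedom were 4. FPKM and ratios are descriptive, and SD is over libraries. P-values measure the spread between these libraries only. Coordinates are GENCODE M21 genes and sequences are from RefSeq. The totals set the precision: 3 fragments, the floor used for detection, were 8.51e-06% to 1.66e-05% of a library, which covers counting error only.

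The genes named were the 7 members, pathway genes called with a 2-fold change in at least 1 pairwise comparison, Il1b, Il18 and Gsdmd, and the genes most like each member. Arrdc4, P2rx7, Nek7, Panx2, Panx3, Ninj1, Dfna5 and Hmgb1 were added after their values were seen, as were the genes named only in a figure caption. The members and lists were chosen with earlier results of these data known. Alternatives were DESeq2 1.42.0, RLE and Cuffdiff scaling, no expression filter, limma 3.58.1 on log2 of FPKM with 1 or 0.1 added, refits to the 2 days compared, a replicate block, leaving out each library, an adjusted p under 0.01 and the stringent rule. The test was checked on simulated counts. Plots were drawn with matplotlib 3.10.9 in Python 3.11.15. One marker list is not reported here.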

Additional observations from a re-analysis of the deposited data

How the results depend on the processing

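Counts of called members (3 from day 5 to 14, 0 from day 14 to 28, 5 from day 5 to 28, and 0 for day 14 against the mean of the other days) stayed within 1.5 times under RLE or Cuffdiff scaling, limma, fits on the compared days and the stringent rule. At an adjusted p under 0.01 they were 1 for day 14 and 3 for day 28 against day 5. Against the mean of the other days, DESeq2 and the fit with no expression filter each called 1. Leaving out 1 library gave 1 to 4, 0 to 1, 2 to 5 and 0 to 2 called members, in the order above. No called value of a member changed sign, and the cause of the moved counts was not tested.

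Counts of other pathway genes (6, 1, 28 and 0 in the same order) moved more. DESeq2 gave 11, 7 and 4 and no expression filter 12, 8 and 3 for the first, second and last comparison. limma gave 3 for the first with log2(FPKM + 1), and 0 for the second with either pseudocount. Fits on the compared days gave 2 and 0 for the first and second. An adjusted p under 0.01 gave 0, 0 and 11, and the stringent rule 2, 0 and 12. Leaving out 1 library gave 0 to 22, 0 to 17, 9 to 33 and 0 to 6. The extremes were set by day 14 replicate 1 (22 for the first without it), day 14 replicate 2 (17 for the second and 6 for the last) and day 28 replicate 1 (9 for the third). With a library of days 14 or 28 left out, the lone library of that day was assumed to vary like the other groups. Over all genes, calls in the order above numbered 614, 8, 1960 and 2 with edgeR, 1366, 332, 2485 and 197 with DESeq2, and 1429, 390, 2466 and 229 with no expression filter.

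With the replicate number as a block, 0 members and 0 other genes were called from day 5 to 14, 2 members and 17 other genes from day 5 to 28, and 0 other genes from day 14 to 28. Over all 12858 genes tested, the block called 6 from day 5 to 14, 735 from day 5 to 28 and 0 from day 14 to 28. The labels do not say that a number marks a shared day, so the numbers were not taken to pair the libraries. Deviations of same-numbered libraries correlated at 0.278 between days 5 and 14, -0.138 between days 14 and 28 and -0.0144 between days 5 and 28. Each value rests on 2 pairs whose deviations mirror each other, so it cannot decide whether the libraries were paired. The block left 2 residual degrees of freedom in place of 4. With the day 28 numbers swapped, an alternative added after this was seen, the block gave 2, 0, 5 and 0 called members and 5, 2, 27 and 0 other genes. Over all genes it then called 357, 63, 1579 and 18.

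The members had 139 to 24407 fragments in each library, while days 14 and 28 had 2 libraries each.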
